A study of Glycine max with 9 samples.

Results

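The soybean genome carries several copies of TIMING OF CAB EXPRESSION 1 (TOC1) and of GIGANTEA, which in other plants belong to the evening side of the circadian clock. Leaf transcripts of 7 such copies were followed here through chilling: 4 TOC1 copies (Glyma04g33110, Glyma06g21120, Glyma05g00880 and Glyma17g11040) and 3 GIGANTEA copies (Glyma10g36600, which is the maturity gene E2, Glyma20g30980 and Glyma09g07240). The copies were chosen by identifier. The table holds 49777 genes, all 7 copies included. Tests covered the 38985 genes whose mean reached 10, and all 7 copies passed that minimum.

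Unifoliate leaves of 2-week-old Williams 82 seedlings were sampled after 0, 1 and 24 h at 4 °C, with 3 replicate libraries per time and at least 6 plants behind each. All plants had grown at 20 °C with 18 h of light and 6 h of darkness, and the chilling started 4 h after lights on. The 24 h leaves were therefore a day older than the 0 h leaves but at an equal point of the light cycle, and the 1 h leaves were 1 h further into the light. No warm leaves of the later hour or the later day were analysed here, so cold cannot be told apart from time of day at 1 h or from leaf age at 24 h.

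In Arabidopsis, TOC1 is a pseudo-response regulator that accumulates towards dusk and represses the morning genes CCA1 and LHY, which in turn repress TOC1. GIGANTEA is a large plant-specific protein, also of evening phase, that stabilizes the blue-light receptor ZEITLUPE and acts with the related F-box protein FKF1 in leaves to lift the repression of CONSTANS and FT, the route by which day length controls flowering. In soybean the E2 locus is a GIGANTEA gene, and its loss-of-function allele brings flowering and maturity forward. What the other soybean copies do individually is less well established, and they are named here by identifier only.

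Normalized counts summed to between 71.0 and 81.9 M per library, from an estimated 18.0 to 67.8 M reads. Over all genes, replicate number carried 87.7% of the variation of log2 values (as sums of squares) and time in the cold 5.1%. In 35.6% of the genes tested all libraries of replicate number 3 lay above the other 6, and in 32.2% all lay below. The first principal component of the libraries carried 80.5% of the variance. Values are therefore given by replicate number, and the called results also without number 3. In whole leaf RNA, fewer expressing cells and less RNA per cell cannot be told apart. The identifiers carry no gene names in the files, so leaf markers were not checked, and how reads shared between near-identical copies were counted was not given in the sources used here, which leaves single copies uncertain to that extent.

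Among the TOC1 copies, Glyma04g33110 was higher in the cold in every replicate number. It had 357, 401 and 1816 normalized counts in replicate numbers 1, 2 and 3 at 0 h, 541, 473 and 2191 at 1 h, then 489, 553 and 2198 at 24 h. Both chilled values lay above the 0 h value of the same number in 3 of 3 numbers, although the groups overlapped because number 3 was so much higher. The mean was 1080 ± 969 at 24 h and 858 ± 830 at 0 h (SD, n = 3), so the difference was smaller than the spread between unpaired replicates. With libraries paired by number, it rose at 24 h against 0 h by 0.40 ± 0.10 on the log2 scale (moderated SE, limma adjusted p = 0.047), or 1.32-fold. The change was 0.45, 0.46 and 0.28 within numbers 1, 2 and 3.

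That call was marginal. It had an adjusted p of 1 in limma without the pairing and of 0.11 without number 3, where the difference was 0.46 ± 0.14. It was lost without 7 of the 9 libraries taken out singly and kept only without 1 h replicate 1 or 1 h replicate 2, with limma adjusted p of 0.040 to 0.24 over the 9 removals. At 1 h the same gene differed from 0 h by 0.37 ± 0.10, which did not pass (limma adjusted p = 0.065), and between 24 h and 1 h it differed by 0.03 ± 0.10 (limma adjusted p = 0.99). Of its levels, 0 h was the lowest in every number. No order is given for 1 h and 24 h, since 24 h was the lower of them in number 1 and their mean difference was -0.07 with equal library totals.

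Glyma17g11040, the second TOC1 copy that was higher at 1 h in 3 of 3 replicate numbers, was highest at that time. Its normalized counts were 304, 349 and 3699 in numbers 1, 2 and 3 at 0 h, 506, 428 and 4011 at 1 h, then 357, 382 and 3879 at 24 h. The 1 h value was the highest of the 3 times within each number, by most in number 1. The difference at 1 h against 0 h was 0.38 ± 0.11 on the log2 scale, or 1.30-fold, and did not pass (limma adjusted p = 0.088, 95% interval 0.13 to 0.63 before adjustment). Within numbers 1, 2 and 3 it was 0.73, 0.29 and 0.12. At 24 h the difference from 0 h was 0.14 ± 0.11 (limma adjusted p = 0.54), and the difference between 24 h and 1 h was -0.24 ± 0.11 (limma adjusted p = 0.88). None of these differences passed, and single libraries moved them. Without 1 h replicate 1 the difference was 0.23 at 1 h against 0 h and -0.08 at 24 h against 1 h. The difference at 24 h against 0 h was 0.03 without 0 h replicate 1 and 0.23 without 0 h replicate 3.

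The other TOC1 copies gave no common direction. Glyma05g00880 had 2148, 2524 and 10109 normalized counts in numbers 1, 2 and 3 at 0 h, 2510, 2643 and 8766 at 1 h, then 2600, 2952 and 8193 at 24 h. It was thus higher at each chilled time in numbers 1 and 2 and lower in number 3. The log2 difference at 24 h from 0 h was 0.28, 0.23 and -0.30 within numbers 1, 2 and 3, which averaged 0.07 ± 0.10 (limma adjusted p = 0.79). Without number 3 it was 0.25 ± 0.08 (limma adjusted p = 0.11). Its difference at 1 h from 0 h was 0.03 ± 0.10 with all libraries (limma adjusted p = 0.92).

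Glyma06g21120 rested on the fewest reads of the 7 copies. It had 125, 141 and 231 normalized counts in numbers 1, 2 and 3 at 0 h, 115, 133 and 267 at 1 h, then 115, 175 and 257 at 24 h. Its lowest library held an estimated 34.1 reads, for which counting alone gives an error of 17.1%. The log2 difference from 0 h was 0.00 ± 0.17 after 1 h (limma adjusted p = 1.00). After 24 h it was 0.11 ± 0.17, with a 95% interval of -0.26 to 0.48 (limma adjusted p = 0.77). Single libraries moved the difference at 24 h from 0 h between -0.0044, without 24 h replicate 2, and 0.20, without 0 h replicate 1. No order of its 3 times could be told at this depth.

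All 3 GIGANTEA copies had lower values at 24 h than at 0 h in every replicate number, under each scaling tried, and of them E2 passed the test. E2 (Glyma10g36600) had 10504, 11106 and 65394 normalized counts in numbers 1, 2 and 3 at 0 h, 9081, 9582 and 62816 at 1 h, then 7904, 8368 and 61487 at 24 h. Each later time was lower than the one before in 3 of 3 numbers, although with quantile normalization 1 h was below 0 h in 2 of 3. At 24 h it fell by 0.30 ± 0.07 on the log2 scale relative to 0 h (moderated SE, limma adjusted p = 0.044), which left 0.811 of the 0 h level. The change was -0.41 in number 1, -0.41 in number 2 and -0.09 in number 3.

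Without number 3, E2 at 24 h differed from 0 h by -0.41 ± 0.06 (limma adjusted p = 0.0092), and without both number 3 and the pairing it did not pass (limma adjusted p = 0.066). With all 9 libraries and no pairing the adjusted p was 1, and the mean of 25920 ± 30803 at 24 h and that of 29001 ± 31518 at 0 h (SD, n = 3) carry the gap between number 3 and the others. Taken out singly, 7 of the 9 libraries ended the call, and it was kept only without 0 h replicate 3 or 24 h replicate 3 (limma adjusted p of 0.013 to 0.25 over the 9 removals). At 1 h the difference was -0.16 ± 0.07 (limma adjusted p = 0.26), and between 24 h and 1 h it was -0.14 ± 0.07 (limma adjusted p = 0.88), so neither difference from 1 h passed. Without 24 h replicate 3 the difference between 24 h and 1 h was -0.22.

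Glyma20g30980 differed less between times. Its normalized counts were 2957, 3014 and 21639 in numbers 1, 2 and 3 at 0 h, 2977, 3056 and 21193 at 1 h, then 2466, 2785 and 20796 at 24 h. The ratio of its 1 h to its 0 h value was 1.01 in numbers 1 and 2 and 0.979 in number 3. The mean log2 difference at 1 h from 0 h was 0.00 ± 0.07, with a 95% interval of -0.15 to 0.15 (limma adjusted p = 1.00). At 24 h against 0 h it was -0.14 ± 0.07 (limma adjusted p = 0.27), lower in 3 of 3 numbers, and -0.08 without 24 h replicate 1.

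Glyma09g07240 had the most negative mean log2 difference of the 7 copies at 24 h from 0 h and did not pass. It had 484, 476 and 44859 normalized counts in numbers 1, 2 and 3 at 0 h, 477, 623 and 39945 at 1 h, then 312, 399 and 35811 at 24 h. The 24 h value was the lowest of the 3 times in each number, while the 1 h value was above that of 0 h only in number 2. At 24 h the log2 difference from 0 h was -0.40 ± 0.11 (limma adjusted p = 0.072), or 0.756 of the 0 h level. At 24 h against 1 h it was -0.47 ± 0.11 (limma adjusted p = 0.80), and -0.61, -0.64 and -0.16 within numbers 1, 2 and 3. Its difference at 1 h from 0 h was 0.07 ± 0.11 (limma adjusted p = 0.79).

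**Figure D1:**
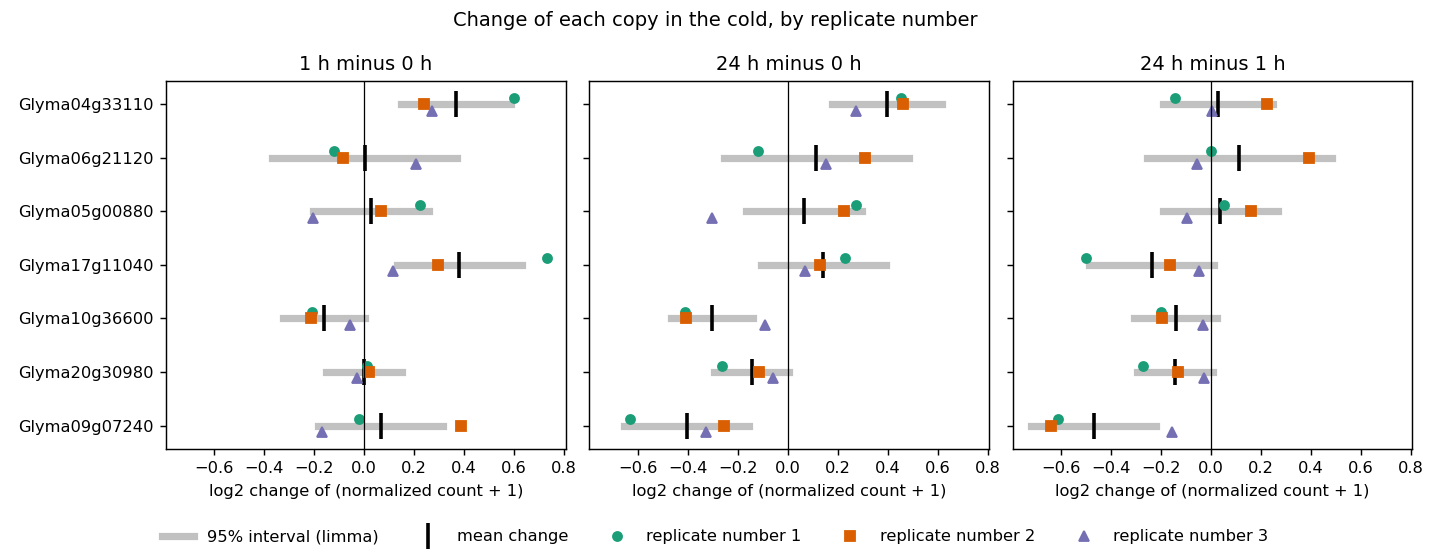
Log2 change of each copy between 2 times, of the normalized count plus 1, with 1 symbol per replicate number, a black bar for the mean and a grey band for the 95% interval of limma with libraries paired by number (before adjustment for multiple tests). At 24 h against 0 h the 3 GIGANTEA copies lie left of 0 in every number, and Glyma04g33110 and Glyma17g11040 lie right of 0 in every number.

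Across the 7 copies, E2 and Glyma04g33110 passed, both at 24 h. At 1 h against 0 h, 0 of the 7 passed in limma with the pairing, and 2 had an unadjusted p under 0.05, Glyma04g33110 and Glyma17g11040. In that comparison 4.47% of all genes tested passed, 2.4% higher and 2.07% lower, or 934 and 808 genes, compared with 1446 higher and 434 lower with equal library totals. At 24 h against 0 h, where 5.11% of all genes passed, 1 of the 7 was called higher, where 3.01% of all genes were, and 1 was called lower, where 2.1% were. Without number 3, 0 of the 7 were called higher and 1 lower at 24 h, where 2.94% and 1.82% of all genes were, and without the pairing as well 0 passed, where 0.348% of all genes did. With equal library totals 918 genes were called higher and 1146 lower at 24 h, compared with 1173 and 820 as deposited, and Glyma04g33110 then passed at 1 h (limma adjusted p = 0.033) and not at 24 h (limma adjusted p = 0.063). Between 24 h and 1 h, 0 of the 7 passed, as did 0% of all genes, and 1 copy, Glyma09g07240, had an unadjusted p under 0.05. Without the pairing 0 of the 7 passed in any of the 3 comparisons, with 0 at an unadjusted p under 0.05, and 0% of all genes passed.

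The direction was shared by all 3 replicate numbers in 5 of the 7 copies at 24 h against 0 h, 2 TOC1 copies higher and 3 GIGANTEA copies lower, also with equal library totals and quantile normalization. Over all genes tested, 18.7% were higher and 21.8% lower in 3 of 3 numbers in that comparison. At 1 h against 0 h, 2 TOC1 copies were higher in 3 of 3 numbers and E2 was lower (in 2 of 3 with quantile normalization), where 17.5% and 21.6% of all genes were. Glyma20g30980 was higher at 1 h in 2 of 3 numbers as deposited, but in 3 of 3 with equal library totals and with quantile normalization. Between 24 h and 1 h, 4 copies were lower in 3 of 3 numbers, Glyma17g11040 and the 3 GIGANTEA copies, where 12.9% of all genes were. The median log2 change at 24 h against 0 h was 0.13 over the 4 TOC1 copies and -0.30 over the 3 GIGANTEA copies, compared with -0.02 over all genes. With the sign left out, that median was 0.14 over the 7 copies, 0.13 over TOC1 and 0.30 over GIGANTEA, against 0.18 over all genes. For the 7 copies it was 0.07 at 1 h against 0 h, where all genes had 0.18. Between 24 h and 1 h it was 0.14, where all genes had 0.11. Both comparisons with 0 h use the same 0 h libraries.

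The summed counts of each family differed less between times than between number 3 and the other numbers. The GIGANTEA sum was 13945, 14596 and 131892 normalized counts in numbers 1, 2 and 3 at 0 h, 12535, 13261 and 123954 at 1 h, then 10682, 11552 and 118094 at 24 h. Each later sum was below the one before in every number, and at 24 h it stood at 0.766, 0.791 and 0.895 of the 0 h value in numbers 1, 2 and 3. The TOC1 sum was 2934, 3415 and 15855 in numbers 1, 2 and 3 at 0 h. It was 3672, 3677 and 15235 after 1 h, and 3561, 4062 and 14527 after 24 h. It was higher at both chilled times in numbers 1 and 2 and lower in number 3. These sums are not corrected for gene length, are led by the copies with the highest counts, and were not tested.

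The differences between number 3 and the other numbers were larger than those between times. All 7 copies had every library of number 3 above the other 6 libraries, a pattern found in 35.6% of all genes tested, while 32.2% of genes showed the reverse. Glyma09g07240 was 93.3-, 73.1- and 101-fold higher in number 3 than in the mean of numbers 1 and 2 at 0, 1 and 24 h. Only 0.846% of the genes tested, 330 of 38985, were as high or higher in number 3 by the mean over the times. This copy thus had 312 to 623 normalized counts in the 6 libraries of numbers 1 and 2, and 35811 to 44859 in the 3 of number 3.

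The other copies followed with smaller differences. Averaged over the times, Glyma17g11040 was 10.1-fold higher in number 3 than in numbers 1 and 2, Glyma20g30980 7.39-fold, E2 6.75-fold, Glyma04g33110 4.44-fold, Glyma05g00880 3.52-fold and Glyma06g21120 1.89-fold. The median over the 7 copies was 2.76 on the log2 scale, against 0.03 over all genes, for which the 5th and 95th percentiles were -2.37 and 3.54. These libraries carry the same cultivar, tissue and treatment labels as the others of their time. Between numbers 2 and 1, the ratio of each copy averaged over the times was 1.01 to 1.25. What a replicate number shares is not given in the labels, and no test was made of number 3 against the others.

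**Figure D2:**
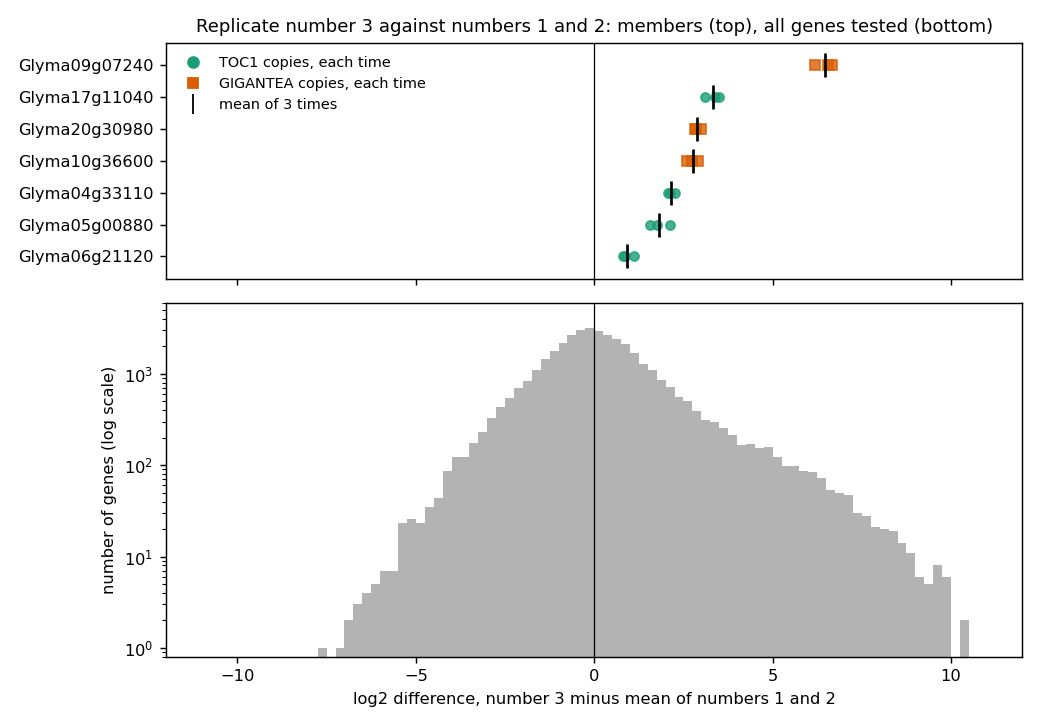
Log2 difference between replicate number 3 and the mean of numbers 1 and 2 on log2 values, for the 7 copies (top, 1 symbol per time, bar for the mean of the 3 times) and as a histogram of all 38985 genes tested (bottom, bins of 0.25, log scale). The copies lie between 0.92 and 6.47, all to the right of the median of all genes at 0.03.

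The copies of a family did not keep the same proportions between replicate numbers. Within a library, Glyma09g07240 supplied 34.0% of the GIGANTEA counts in number 3 at 0 h, but 3.47% and 3.26% in numbers 1 and 2. At 24 h its share was 30.3% in number 3 and 2.92% and 3.45% in numbers 1 and 2. E2 supplied 49.6% in number 3 and 75.3% and 76.1% in numbers 1 and 2 at 0 h. Among the TOC1 copies, Glyma17g11040 supplied 23.3% in number 3 and 10.4% and 10.2% in numbers 1 and 2 at 0 h, and Glyma05g00880 63.8% in number 3 and 73.2% and 73.9% in numbers 1 and 2. These are shares of counts and not of transcripts per length, so they show how proportions differ between libraries and not which copy is the most abundant.

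Between times the proportions differed less. The ratio of 2 copies was compared between times in 5 pairs and 3 comparisons, 15 tests in all, by an exact permutation test of 3 libraries against 3, which cannot give a p under 0.1. The smallest was p = 0.2, two-sided exact permutation, for E2 over Glyma20g30980 at 24 h against 0 h (0.9 adjusted over the 15). That log2 ratio was 1.68, 1.59 and 1.56 in numbers 1, 2 and 3 at 24 h, against 1.83, 1.88 and 1.60 at 0 h. Its mean difference was -0.16 ± 0.13 (SD, n = 3), lower in 3 of 3 numbers. Of the 24 h ratios, that of number 1 lay inside the range at 0 h.

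In both TOC1 pairs the ratio at 1 h lay on one side of its 0 h value in 3 of 3 numbers. Glyma04g33110 over Glyma06g21120 was higher at 1 h than at 0 h in 3 of 3 numbers, by 0.72, 0.32 and 0.06 on the log2 scale in numbers 1, 2 and 3 (exact permutation p = 0.5, two-sided). The ratio of Glyma05g00880 to Glyma17g11040 was lower at 1 h than at 0 h in 3 of 3 numbers, by a mean of -0.35 ± 0.14 (SD, n = 3, exact permutation p = 0.5, two-sided). It was 4.95, 6.16 and 2.19 in numbers 1, 2 and 3 at 1 h and 7.05, 7.21 and 2.73 at 0 h. Glyma09g07240 was lower relative to both other GIGANTEA copies at 24 h than at 1 h in 3 of 3 numbers, with a mean log2 difference of -0.33 ± 0.18 against E2 and -0.33 ± 0.19 against Glyma20g30980 (SD, n = 3, exact permutation p = 0.5 for each, two-sided). This test does not use the pairing, so the gap between number 3 and the others enters its spread. An exact sign-flip test of the paired differences, chosen after seeing the data, cannot give a p under 0.25. Of the 15 comparisons, 8 had one direction in 3 of 3 numbers, which is the same as reaching that smallest value. No share over other gene pairs was taken, so this count has no background to be read against. Nor are the 15 independent, since comparisons share times and the GIGANTEA pairs share copies. With 3 libraries a time neither test can pass 0.05, so neither says whether the proportions differ.

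**Figure D3:**
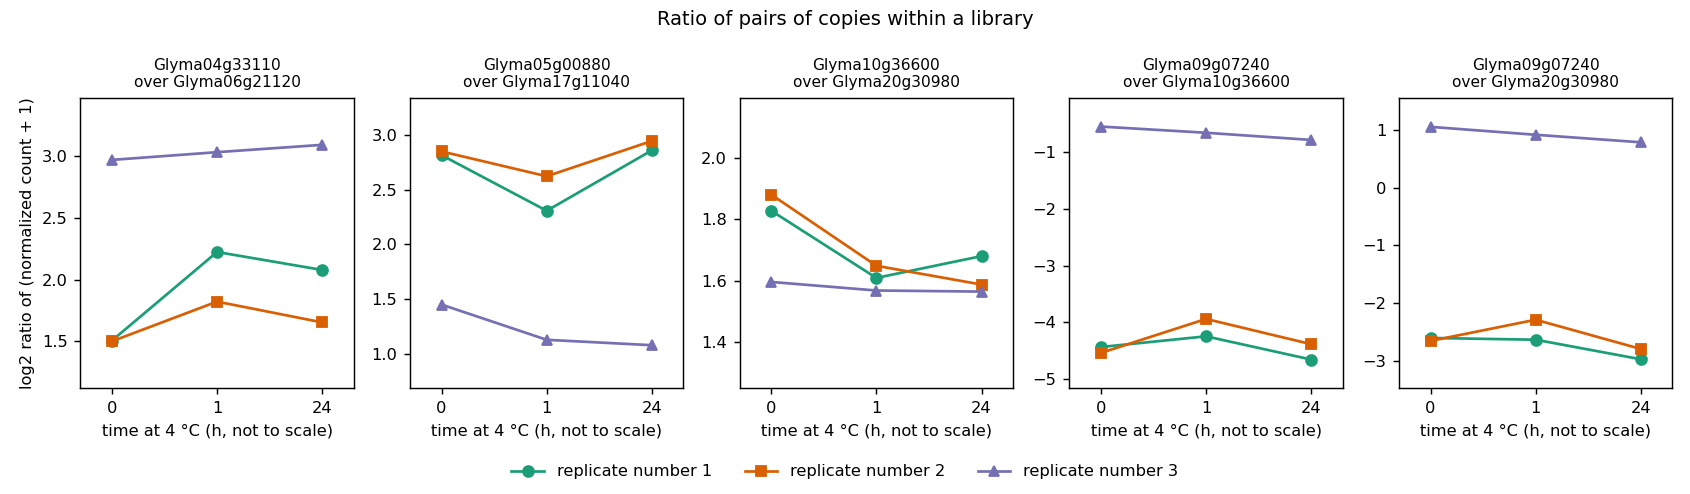
Log2 ratio of the normalized counts plus 1 of 2 copies within the same library at 0, 1 and 24 h at 4 °C, with 1 line per replicate number and a separate vertical range in each panel. Number 3 lies apart from numbers 1 and 2 in 4 of the 5 panels, while E2 over Glyma20g30980 runs from 1.56 to 1.88 over all libraries.

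The genes most like each family over time were sought among 28530 other genes with a mean of at least 100, by Pearson correlation over the 9 libraries after each replicate number was centred on its own mean. For the TOC1 sum the closest gene was Glyma13g00980, with a correlation of 0.99. It had 371, 359 and 320 normalized counts in numbers 1, 2 and 3 at 0 h, 511, 419 and 287 at 1 h, then 503, 498 and 275 at 24 h. Like the TOC1 sum it was higher in the cold in numbers 1 and 2 and lower in number 3. The most opposite gene was Glyma09g24930, at -0.99, with 280, 310 and 242 in numbers 1, 2 and 3 at 0 h, 233, 299 and 245 at 1 h, then 234, 266 and 258 at 24 h.

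For the GIGANTEA sum the closest gene was Glyma20g33200, also at 0.99. Its normalized counts were 484, 519 and 658 in numbers 1, 2 and 3 at 0 h, 449, 473 and 615 at 1 h, then 387, 416 and 569 at 24 h, lower at each later time in every number. The most opposite gene was Glyma14g26460, at -0.99. In numbers 1, 2 and 3 it had 1044, 1261 and 1910 after 0 h, 1166, 1419 and 2021 after 1 h, and 1330, 1632 and 2150 after 24 h, higher at each later time in every number. None of these 4 identifiers has a name in the files or in the gene table used. The centred values share libraries, fewer of them are free than there are libraries, and the extremes of 28530 correlations are high by selection, so they are given as a description.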

How the data were processed

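Leaf RNA was made into TruSeq libraries and sequenced, per the labels' protocols. In the deposited table each value is a score per gene and library, the authors' normalized read count in whole numbers. Tools named in the submitters' processing notes are DESeq 1.12 and cutadapt 1.2.1; for aligner, read counter, genome build and annotation the answer is not given in the sources used here. Low scores lay on steps of 1.17 to 4.13, taken as the worth of 1 read, and each total divided by its step gave the estimated depth. Of the scores from 1 to 40, 82.0% to 95.4% equalled a multiple of the step rounded to the nearest whole number (a small step covers more numbers by construction), so counts of whole reads could not be rebuilt and tests for counts were left out. Errors from reads cover counting only.

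Values were analysed as log2(score + 1), which understates the difference of low genes. Groups and replicate numbers came from the sample titles. limma 3.58.1 in R 4.3.3 (trend, robust, two-sided) was fitted to all 9 libraries at once with the replicate number as a block, over 38985 genes with a mean of 10 or more, and p was adjusted by Benjamini-Hochberg at a threshold of 0.05. Pairing by replicate number was set as a rule beforehand, and what a number stands for is not in the labels. Deviations from the group mean correlated at 0.69 to 0.95 across genes between libraries of equal number. Between libraries of unequal number the range was -0.85 to 0.59. Much of this pattern can come from number 3, which lay far from the others. The correlations therefore do not settle how the remaining libraries pair. With the block, p-values measure the scatter left once time and replicate number are taken out, which may be technical. Without the block they measure the whole spread between libraries of a time. For E2 at 24 h against 0 h the SE was 0.075 with the block and 1.16 without it. The fit was checked on simulated data with planted changes larger than those called here and independent noise around an additive replicate effect. That check does not show how well changes of the size called here are found. Nor does it show whether the replicate effect is additive in these data. Copy ratios were compared by exact permutation, unpaired and paired, in scipy 1.17.1, and figures drawn with matplotlib 3.10.9. Alternatives covered the pairing, pseudocount, filter, scaling, moderation and the libraries used.

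All 7 copies are named, with the genes of highest and lowest correlation to each family's sum. The members and lists were chosen with earlier results of these data known. Of 49777 identifiers 0 matched the RefSeq table of 59048 genes, so other clock genes were not listed and no sequence is shown.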

Additional observations from a re-analysis of the deposited data

How the results depend on the processing

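The fit called 1 copy higher and 1 lower at 24 h against 0 h. Both counts became 0 with no replicate block, with no filter on low values, without trend and robust moderation, with only the groups compared, and with neither number 3 nor the block. Equal library totals gave 0 higher at 24 h and 1 higher at 1 h, and quantile normalization gave 2 lower at 24 h, Glyma09g07240 being added (limma adjusted p = 0.029). Leaving out single libraries or whole numbers gave 0 to 1 higher and 0 to 1 lower at 24 h. The one lower without 1 h replicate 2 was Glyma09g07240 (limma adjusted p = 0.046), not E2. With the block, Glyma04g33110 kept its call in 6 and E2 in 8 of 20 alternatives, and both kept their direction in 20. Over all genes, 1742 passed at 1 h and 1993 at 24 h, against 0 and 0 with no block, 0 and 1 without moderation, and 734 and 1185 with only the groups compared. Across removals, 7 to 2207 passed at 1 h, 42 to 1961 at 24 h against 0 h, and 0 to 3 at 24 h against 1 h. The cause of these losses was not tested.

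Directions turned in log2 differences that had not passed. Quantile normalization gave -0.023 for Glyma06g21120 and 0.049 for Glyma20g30980 at 1 h against 0 h, and -0.0066 for Glyma05g00880 at 24 h against 1 h. Equal library totals gave 0.062 for Glyma20g30980 at 1 h against 0 h, and -0.074 for Glyma04g33110 and -0.065 for Glyma05g00880 at 24 h against 1 h, where that scaling put the median of all genes at -0.10. Without number 3 and with no block, Glyma20g30980 was at 0.015 at 1 h. Over removals, differences at 1 h against 0 h ran from -0.10 to 0.093 for Glyma06g21120, -0.073 to 0.18 for Glyma05g00880, -0.034 to 0.037 for Glyma20g30980 and -0.094 to 0.20 for Glyma09g07240. Differences at 24 h against 0 h ran from -0.0044 to 0.23 for Glyma06g21120 and -0.039 to 0.25 for Glyma05g00880. Those at 24 h against 1 h ran from -0.070 to 0.13 for Glyma04g33110, -0.027 to 0.21 for Glyma06g21120 and -0.033 to 0.16 for Glyma05g00880. Among copy ratios, Glyma05g00880 over Glyma17g11040 ran from -0.16 to 0.070 at 24 h against 0 h, E2 over Glyma20g30980 from -0.033 to 0.034 at 24 h against 1 h, and Glyma09g07240 over Glyma20g30980 from -0.084 to 0.17 at 1 h against 0 h. The cause was not tested. Depth limits Glyma06g21120 most, whose lowest library held an estimated 34.1 reads. The called Glyma04g33110 had an estimated 141, 97.1 and 1164 reads at 0 h in numbers 1, 2 and 3. Counting alone gives these errors of 8.4%, 10.1% and 2.9%. For Glyma17g11040 at 0 h the errors were 9.1%, 10.9% and 2.1%.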
